A study of Mus musculus with 6 samples.

Results

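The genes of DNA replication and of nucleotide supply were followed in cultured mouse lymphatic endothelial cells (LEC), the cells that line lymph vessels, from a tumour and from normal skin. The set was a list of 44 gene symbols taken by function. Of these, 43 had at least 1 Affymetrix probe set annotated to that gene alone, and Chaf1a was not analysed here. All 43 passed the filter on low values, out of 12954 genes tested. Where a gene had several probe sets, the one with the highest mean over the 6 arrays was taken as its value.

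The tumour group held LEC from fibrosarcomas, T241/VEGF-C/GFP, that had been injected into C57BL/6 mice, that is tumours carrying VEGF-C, which drives growth of lymph vessels, and GFP, a fluorescent marker. The normal group held dermal LEC of female C57BL/6 mice, taken from the tail at 8 weeks of age. The labels give no age or sex for the mice with tumours. Cells of both groups grew in EGM-2, an endothelial growth medium, on gelatin before their RNA was taken, so every value is that of cells in culture. LYVE-1, a hyaluronan receptor of lymphatic endothelium, was used to select cells on magnetic beads; this step is given for both groups, although the protocol text for the tumours runs into that for skin. Per the labels, lifting with EDTA took away most of the tumour cells, not all. Each group had 3 arrays with 50 ng of RNA each. The labels do not say whether these were separate cultures or animals, and the p-values therefore cover the spread of these arrays alone, which may be technical. Their number limits the precision. The titles of the tumour arrays name tumour cells, and the source descriptions, which name LEC, were followed.

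The arrays differed in background and in markers of other cells. Tumour replicate 3 had the highest median log2 value over all probe sets (3.15, against 2.99 to 3.02 on the other 5) and the highest median of the control probe sets for absent bacterial RNA (2.77, against 2.56 to 2.61). The highest of these 27 controls lay at 3.40 to 3.71 per array and served as the background limit. Lyve1 read 14.11 to 14.91 in tumour LEC and 13.65 to 14.32 in normal LEC, and the lymphatic regulator Prox1 7.77 to 8.92 and 7.73 to 8.30, so these defining markers of the labelled cell type were present on every array. Of 8 lymphatic markers 7 were tested, and Mmrn1 was at background on all arrays. Of 8 fibroblast markers tested, all were lower on average in tumour LEC and 1, Col1a2, passed the test, and the list's median level was 3.89 to 3.93 there, against 11.43, 8.30 and 8.45 in normal replicates 1, 2 and 3, the group in which the replication genes were higher on average (2 of 43 turned with quantile normalization, 6 with array weights). Of 8 leukocyte markers 5 were higher in tumour LEC, and the list's median level was 9.32, 5.85 and 4.43 in tumour replicates 1, 2 and 3, against a range of 4.92 to 7.47 for normal LEC. The leukocyte antigen Ptprc was above background only in tumour replicate 1, at 5.92. Of 8 markers of endothelium in general 7 were higher on average in tumour LEC, with a median level of 10.48 to 11.39 there and 9.26 to 10.81 in normal LEC. Of 5 keratinocyte markers 3 passed the filter on low values, and 2 of these were at background on all arrays. Of 5 smooth muscle markers 4 passed it, and 2 of these were at background on all arrays. The list's median level was 3.05 to 3.17 in tumour LEC and 4.30 to 5.70 in normal LEC. Acta2 stood far above this median, at 10.66 to 13.28 in tumour LEC and 12.22 to 13.96 in normal LEC. Cspg4 was at background in tumour LEC (2.64 to 3.06) and read 5.38 to 8.11 in normal LEC. The part of these differences in the results below was not tested. In a bulk sample, fewer cells in division and less RNA of a gene per dividing cell cannot be told apart.

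Before a cell divides, its DNA is copied once. Origins are marked by the origin recognition complex and loaded with the MCM helicase by Cdc6 and Cdt1, the helicase is switched on with Cdc45 and the GINS complex, and polymerases then copy both strands behind it with the help of a sliding clamp, while ribonucleotide reductase, thymidylate synthase and thymidine kinase supply the building blocks. Many of these genes are switched on together by E2F transcription factors when a cell leaves rest, and resting endothelium in a vessel wall makes little of them, whereas cultured endothelial cells in growth medium divide.

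The 43 genes were all lower on average in tumour LEC (41 with quantile normalization and 37 with array weights), and none passed the test. The median log2 difference, tumour minus normal, was -0.97, which is 1.96-fold lower, against 0.03 over all 12954 genes. By limma with Benjamini-Hochberg adjustment over all genes, 0 of 43 had an adjusted p under 0.05, where 0.216% of all genes passed, 0.17% as lower and 0.0463% as higher. Their adjusted p lay between 0.230 and 0.951. Without adjustment 19 of 43 had a p under 0.05, all as lower, beside 8.83% of all genes as lower and 6.66% as higher. This count moved when single arrays were left out, which also lowers the power of the test. It was 38 without tumour replicate 2, 13 without normal replicate 3 and 2 without tumour replicate 3 or normal replicate 1. It was 1 without tumour replicate 1 and 0 without normal replicate 2. The matching shares of all genes with an array left out were not computed. These counts therefore do not tell whether the shifts are particular to the 43 genes. Without normal replicate 1 all 43 genes were still lower, with a median difference of -1.01. A mean below that of normal LEC was found for 43 of 43, beside 46.9% of all genes, and a difference of at least 2-fold for 20, beside 6.76%. With quantile normalization 41 of 43 were lower, with Orc2 and Gins3 at 0.02 each. With arrays weighted by quality 37 were lower and the median was -0.35, and that method gave tumour replicate 2 a weight of 3.72 and tumour replicates 1 and 3 weights of 0.446 and 0.307.

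**Figure D1:**
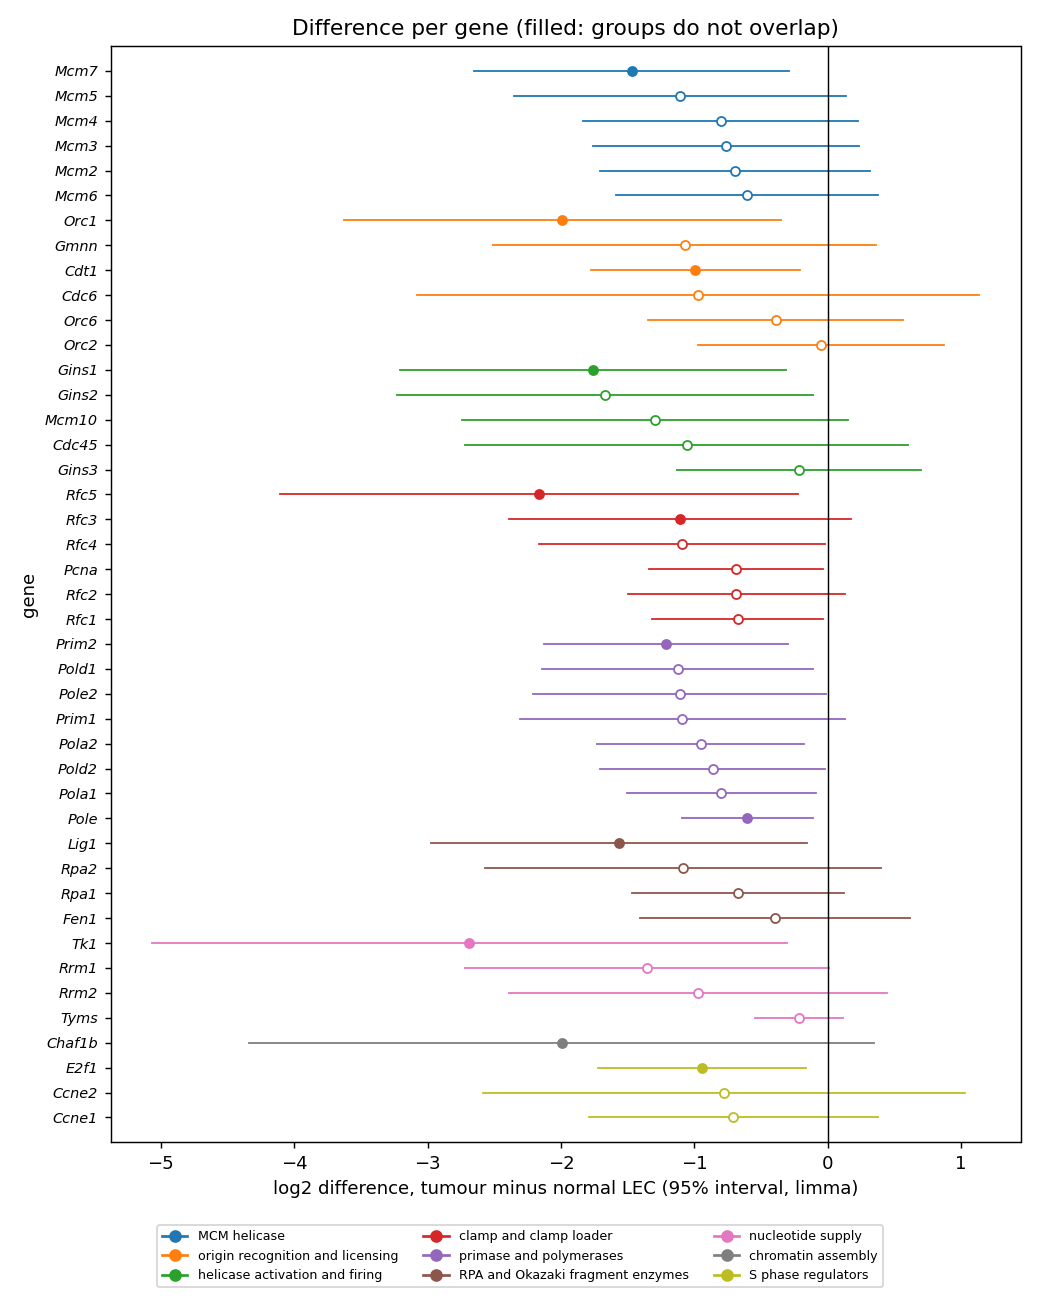
Log2 difference between tumour and normal LEC (horizontal axis) for each of the 43 genes, coloured by role, with the 95% interval from limma as a line. Filled points mark the 12 genes whose 3 tumour values all lie below the 3 normal values, and the intervals of 19 genes lie below 0.

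The 3 tumour arrays were unlike each other in these genes. In tumour replicate 1 all 43 genes lay below every normal array, and in tumour replicate 3 there were 41, with Orc2 and Tyms as the exceptions, whereas 28.7% and 31.7% of all genes did so on these arrays. Their medians against the mean of normal LEC were -1.25 (2.39-fold lower) and -1.53 (2.89-fold lower). Tumour replicate 2 lay close to the normal arrays, with a median of -0.22 (1.17-fold lower). On it 27 genes lay below the normal mean, beside 47.8% of all genes. Below every normal array were 13, beside 25.8% of all genes, a share close to that of 13 among 43. Another 4 lay above every normal array and were thus highest there of all 6 arrays, beside 9.17% of all genes. The replicates 1 and 3 were both below every normal array for 41 of 43 genes, beside 16.7% of all genes, and they were the lowest pair of the 6 arrays for 40, beside 10.1%. Tumour replicate 2 was at or above the lowest normal array for 30, beside 74.2%.

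With all 6 arrays the groups did not overlap for 12 of 43 genes, all lower in tumour LEC, beside 11.6% of all genes. Without tumour replicate 2 the number was 41, beside 16.8% of all genes, and the median difference was -1.52. It was 27 without normal replicate 3, beside 17.4%. Without tumour replicate 1 or 3 the median difference was -0.83 or -0.68, and 0 of 43 genes passed the test with any single array left out. The tumour arrays spread over a median of 1.42 log2 units per gene and the normal arrays over 0.66, and the tumour range was the wider for 38 of 43 genes.

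Within normal LEC, replicate 2 tended to be the highest. Normal replicate 2 was the highest of all 6 arrays for 33 of 43 genes, beside 19.2% of all genes. The median deviation from the gene's mean was 0.82 in normal replicate 2, 0.43 in replicate 1 and 0.21 in replicate 3. Of the tumour arrays it was 0.38 in replicate 2, above that of normal replicate 3, and -0.77 and -0.99 in replicates 1 and 3.

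**Figure D2:**
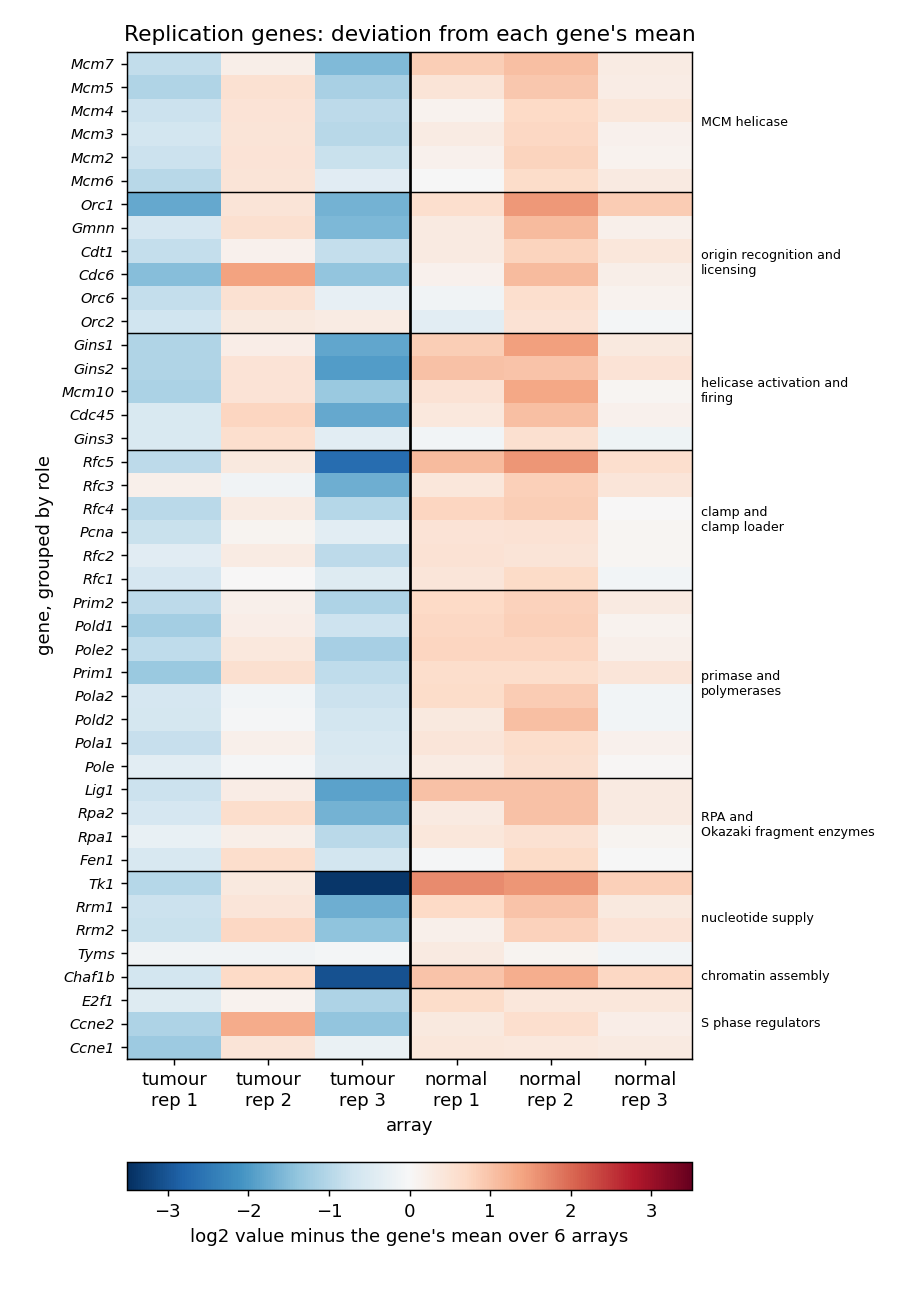
Deviation of each gene's log2 value from its mean over the 6 arrays (colour), with genes in rows by role and arrays in columns. Tumour replicates 1 and 3 are the blue columns (medians -0.77 and -0.99), and tumour replicate 2 has the colour of the normal arrays (median 0.38).

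The start regions of these genes were searched for known promoter motifs, which the choice of genes did not use. The motifs were chosen as ones known in promoters of replication genes, so some excess over other promoters was likely beforehand. RefSeq promoters of assembly GRCm38.p6, each from 250 bases before to 50 bases after a start, were found for 35 of the 43 genes, 41 promoters in all. They were searched on both strands for 3 forms of the E2F site, TTTCCCGC, TTTGGCGC and TTTCGCGC, and for the CCAAT box, spelled CCAAT. At least 1 of the E2F forms was in 13 of 41 promoters (31.7%), each of a different gene, against 1.84% of all 32851 promoters in the table and 2.41% of those of protein-coding genes. Each form alone was in 6 of 41 (14.6%), against 1.07%, 0.514% and 0.323% of all promoters in the order given. CCAAT was in 23 of 41 (56.1%), against 37.4%. Matches of different forms can overlap in the shared letters GCGC and are then both counted.

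Promoter stretches of 5 genes are shown as examples of these letters. In Mcm5, Mcm6, Rfc3 and Gins3 the stretch holds an E2F form, and in Rrm2 it holds CCAAT but none of the E2F forms. Their log2 differences were -1.11, -0.61, -1.11, -0.21 and -0.97 in that order, so the genes with the largest differences are not among them. Each is the part before the start that lies in no annotated gene, written 5′ to 3′ on the strand of the gene, with matches of any of the 4 motifs in capitals. The places are chr8:75109259-75109467 (plus strand) for Mcm5, chr1:128359706-128359955 (minus strand) for Mcm6, chr5:151651209-151651458 (minus strand) for Rfc3, chr8:95633309-95633558 (plus strand) for Gins3 and chr12:24708004-24708253 (plus strand) for Rrm2, all in GRCm38.p6 and upstream of the gene.
Mcm5: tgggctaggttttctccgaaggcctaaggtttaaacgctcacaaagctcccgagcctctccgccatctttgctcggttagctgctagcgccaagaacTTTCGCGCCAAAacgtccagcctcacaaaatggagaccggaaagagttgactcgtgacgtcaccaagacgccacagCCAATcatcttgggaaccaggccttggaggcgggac
Mcm6: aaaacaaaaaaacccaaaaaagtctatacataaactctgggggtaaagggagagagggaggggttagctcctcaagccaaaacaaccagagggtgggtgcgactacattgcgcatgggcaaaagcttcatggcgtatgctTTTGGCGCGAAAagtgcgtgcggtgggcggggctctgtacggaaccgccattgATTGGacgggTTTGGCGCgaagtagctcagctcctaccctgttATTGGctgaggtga
Rfc3: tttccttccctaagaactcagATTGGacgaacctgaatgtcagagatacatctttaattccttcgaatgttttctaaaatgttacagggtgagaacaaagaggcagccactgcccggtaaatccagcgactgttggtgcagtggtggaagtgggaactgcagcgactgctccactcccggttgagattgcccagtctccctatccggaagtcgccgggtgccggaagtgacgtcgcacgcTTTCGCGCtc
Gins3: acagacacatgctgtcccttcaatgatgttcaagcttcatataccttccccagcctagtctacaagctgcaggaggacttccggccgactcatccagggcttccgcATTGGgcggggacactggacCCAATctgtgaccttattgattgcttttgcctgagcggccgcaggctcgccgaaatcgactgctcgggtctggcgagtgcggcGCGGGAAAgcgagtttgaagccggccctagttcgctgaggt
Rrm2: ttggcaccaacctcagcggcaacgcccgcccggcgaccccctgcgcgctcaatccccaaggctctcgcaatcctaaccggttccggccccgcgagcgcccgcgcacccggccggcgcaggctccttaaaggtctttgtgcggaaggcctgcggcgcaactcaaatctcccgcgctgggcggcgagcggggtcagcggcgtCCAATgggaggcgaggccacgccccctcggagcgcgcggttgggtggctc
In Mcm5 and Mcm6 the letters of TTTGGCGC and TTTCGCGC overlap in a single run of capitals, and Mcm6 holds a further TTTGGCGC nearer the start. The median log2 difference was -1.11 (-1.99 to -0.21) over the 13 genes with an E2F form and -0.95 (-2.69 to -0.05) over the 22 without one in this window. A match is no evidence of binding, and the lack of one says only that these letters are not in the window.

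The 6 MCM genes encode the ring that unwinds DNA at the fork. All 6 were lower on average, with log2 differences from -1.47 to -0.61 and a median of -0.78. Values are given here for replicates 1, 2 and 3 in that order. Mcm7 read 11.09, 12.15 and 10.42 in tumour LEC and 12.82, 13.00 and 12.26 in normal LEC. It was the only MCM gene with groups apart on the brightest probe set, by a gap of 0.10 between tumour replicate 2 and normal replicate 3. The difference was -1.47 (SE 0.48, adjusted p = 0.250 by limma). The 3 further probe sets of Mcm7 gave -1.45, -1.34 and -1.19. Another probe set of each of Mcm3, Mcm4 and Mcm6 had groups apart too, with differences of -1.35, -1.23 and -1.06.

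Mcm5 read 10.55, 12.13 and 10.45 in tumour LEC and 12.05, 12.55 and 11.85 in normal LEC. Mcm6 read 10.39, 11.81 and 10.97, and 11.34, 11.99 and 11.66. In both genes tumour replicate 2 lay inside the range of the normal arrays, and in Mcm6, unlike the other 5, tumour replicate 1 was the lowest array. Mcm2, Mcm3 and Mcm4 differed by -0.70 (SE 0.41), -0.76 (SE 0.40) and -0.80 (SE 0.41), again with tumour replicate 2 inside the normal range. Against the normal mean, tumour replicate 2 stood between -0.54 and 0.15 over the 6 genes, and tumour replicate 3 between -2.27 and -0.69.

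Among the genes that mark and license origins the differences ran from -1.99 to -0.05, with a median of -0.98. Orc1, the largest subunit of the origin recognition complex and known to be made in step with the cell cycle, read 3.07, 5.31 and 3.22 in tumour LEC and 5.45, 6.38 and 5.75 in normal LEC. It was at background in tumour replicates 1 and 3, so only 1 tumour array measured it, and the groups did not overlap (difference -1.99, SE 0.66, adjusted p = 0.255 by limma). In the other subunits of the set, Orc2 and Orc6, the groups stood closer together. Orc2 read 7.66, 8.72 and 8.65 in tumour LEC and 8.00, 8.86 and 8.31 in normal LEC, a difference of -0.05 with a 95% interval from -0.97 to 0.87, which turned to 0.02 with quantile normalization. Its second probe set, also above background on all arrays, differed by -0.66, and another, above background on 2 arrays, by -0.63. Orc6 differed by -0.39, with an interval from -1.35 to 0.57. Outside the set, in the list of other pathway genes below, Orc3 and Orc5 differed by -0.35 and -0.49 with groups apart. Orc4 differed by 0.18 with groups that overlapped.

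Cdt1, which brings the MCM ring to origins, read 10.07, 11.06 and 10.08 in tumour LEC and 11.22, 11.67 and 11.30 in normal LEC. The groups did not overlap and the difference was -0.99 (SE 0.31, adjusted p = 0.244 by limma). Gmnn, which encodes geminin, the inhibitor of Cdt1, differed by -1.07 (SE 0.58), and tumour replicate 2 was above normal replicates 1 and 3. Cdc6, the partner of Cdt1 in loading, read 6.14, 9.04 and 6.25 in tumour LEC and 7.78, 8.73 and 7.83 in normal LEC. Here tumour replicate 2 was the highest of all arrays, 0.31 above the highest normal array, while tumour replicates 1 and 3 stood at -1.98 and -1.87 against the normal mean. The difference of the group means was -0.97 (SE 0.85).

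The genes that switch the helicase on had a median difference of -1.30 over 5. Gins1 of the GINS complex read 6.19, 7.48 and 5.41 in tumour LEC and 8.10, 8.69 and 7.59 in normal LEC, with groups apart and a difference of -1.76 (SE 0.58, adjusted p = 0.255 by limma). A dimmer probe set of Gins1 differed by -0.03. Gins2 differed by -1.67 (SE 0.63) and by -1.75 with its other probe set. Both subunits had tumour replicate 3 as the lowest array.

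Gins3, the third GINS gene of the set, read 5.77, 6.90 and 5.93 in tumour LEC and 6.22, 6.88 and 6.15 in normal LEC. Its groups overlapped widely, at -0.21 with an interval from -1.13 to 0.70, and the sign turned with quantile normalization (0.02). Gins4, the remaining GINS gene, was not in the set but in the list of other pathway genes below. It read 8.38, 8.73 and 8.23 in tumour LEC and 9.03, 9.16 and 8.79 in normal LEC. Its groups were apart, with a difference of -0.55 (SE 0.18, adjusted p = 0.254 by limma). Mcm10, a scaffold for helicase activation, read 5.66, 7.24 and 5.46, and 7.28, 8.13 and 6.83. Cdc45, which joins MCM and GINS in the active helicase, read 5.21, 6.48 and 3.94, and 6.12, 6.79 and 5.89. Both had tumour replicate 2 inside the normal range, and Cdc45 was 1.27 lower in tumour replicate 3 than in tumour replicate 1. The Cdc45 value of tumour replicate 3 was close to that array's background limit of 3.71.

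**Figure D3:**
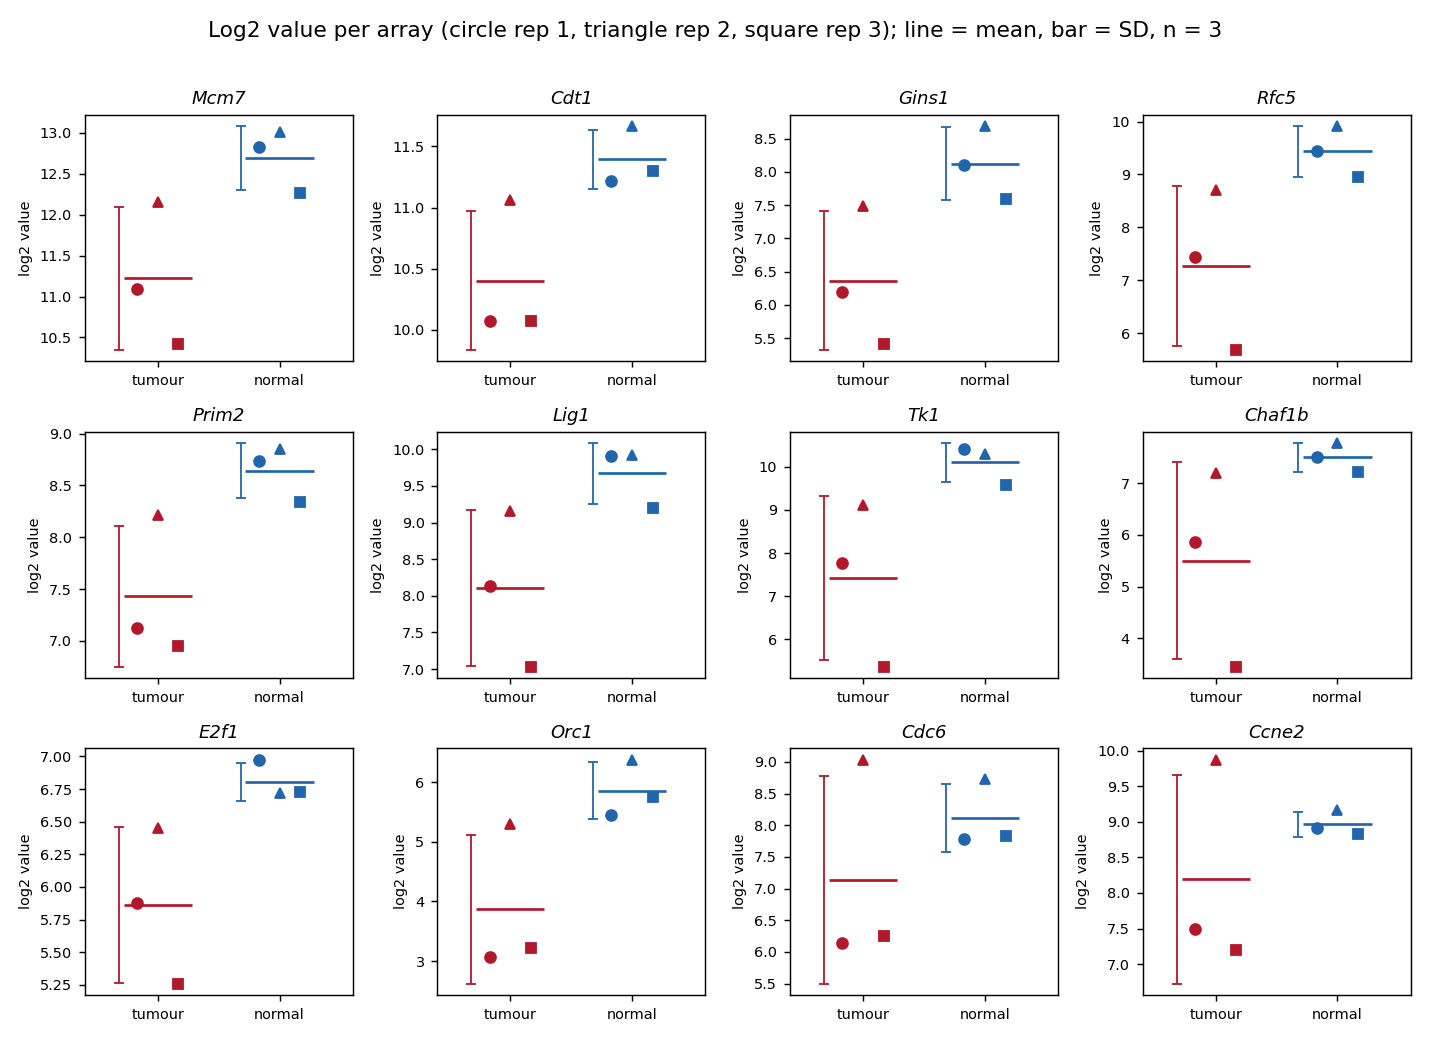
Log2 value per array (vertical axis, own scale per gene) for the gene with the smallest p of each role and for Orc1, Cdc6 and Ccne2; lines are means and bars the SD of 3 arrays. The tumour triangle (replicate 2) is the highest tumour value in each panel, and for Cdc6 (9.04) and Ccne2 (9.88) it lies above all normal arrays.

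The clamp Pcna, a ring that holds polymerases on DNA, and the Rfc genes of its loader had a median difference of -0.89. Pcna had a mean of 12.22 ± 0.44 (SD, n = 3) in the tumour group and 12.90 ± 0.24 (SD, n = 3) in the normal group, a difference of -0.69 (SE 0.26). Rfc5 read 7.43, 8.70 and 5.68 in tumour LEC and 9.45, 9.91 and 8.95 in normal LEC. The groups were apart and the difference was -2.16 (SE 0.78, adjusted p = 0.288 by limma), the largest among loader genes. Rfc3 and the dim Tyms were the only genes in which tumour replicate 2 was not the highest tumour array. Rfc3 read 5.70, 5.41 and 3.82 in tumour LEC and 5.93, 6.37 and 5.95 in normal LEC. In tumour replicate 3 it was close to that array's background limit of 3.71. Its second probe set put tumour replicate 2 first again, at 4.09, 5.10 and 4.57. Rfc1, Rfc2 and Rfc4 differed by -0.68, -0.68 and -1.09.

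Primase and the replicative polymerases comprised 8 genes with differences between -1.21 and -0.60 and a median of -1.02. Prim2, the large subunit of primase, had the smallest p of all 43 genes (0.0182 unadjusted, adjusted p = 0.230 by limma). It read 7.13, 8.21 and 6.96 in tumour LEC and 8.73, 8.85 and 8.34 in normal LEC, with groups apart and a difference of -1.21 (SE 0.37). Prim1, the catalytic subunit, differed by -1.09 (SE 0.49), with the normal arrays within 0.19 of each other and tumour replicate 2 only 0.05 below the highest of them. Pole, the catalytic subunit of the leading strand polymerase, had groups apart at -0.60 (SE 0.20).

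Of the polymerase alpha genes, Pola1 read 8.49, 9.47 and 8.75 in tumour LEC and 9.74, 9.90 and 9.46 in normal LEC. Pola2 read 6.93, 7.44 and 6.78, and 8.17, 8.40 and 7.44. In both, tumour replicate 2 was level with normal replicate 3, the lowest normal array, to within 0.01. Pole2, an accessory subunit of polymerase epsilon, read 7.70, 8.97 and 7.44 in tumour LEC and 9.34, 9.34 and 8.77 in normal LEC. Pold1 and Pold2 of polymerase delta, which copies the lagging strand, differed by -1.12 (SE 0.41) and -0.86 (SE 0.34), with tumour replicate 2 just inside the normal range in each.

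Of the genes that cover single-stranded DNA and join the pieces of the lagging strand, DNA ligase Lig1 differed most. Lig1 read 8.13, 9.16 and 7.03 in tumour LEC and 9.91, 9.92 and 9.19 in normal LEC, apart by 0.03, with a difference of -1.56 (SE 0.57, adjusted p = 0.288 by limma). Rpa1 and Rpa2, subunits of the single-strand binding protein, differed by -0.67 (SE 0.32) and -1.09 (SE 0.60). Fen1, the flap nuclease that trims the pieces before ligation, differed by -0.40 (SE 0.41) with an interval from -1.41 to 0.62. Its dimmer probe set gave -0.93.

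The genes of nucleotide supply held the largest difference of the set. Tk1, the thymidine kinase that salvages thymidine in dividing cells, read 7.76, 9.11 and 5.36 in tumour LEC and 10.42, 10.30 and 9.58 in normal LEC. Against the normal mean the 3 tumour values stood at -2.33, -0.99 and -4.74, and tumour replicate 2 was below every normal array as well. The difference was -2.69, or 6.44-fold lower (SE 0.96, adjusted p = 0.283 by limma), with a 95% interval from -5.07 to -0.31.

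Ribonucleotide reductase makes deoxynucleotides from ribonucleotides with a large subunit, Rrm1, and a small one, Rrm2. Rrm1 read 10.79, 11.96 and 9.85 in tumour LEC and 12.24, 12.53 and 11.89 in normal LEC, a difference of -1.36 (SE 0.55). A dimmer probe set of Rrm1 gave -2.08, with tumour replicate 3 at 4.67. Rrm2 differed by -0.97 (SE 0.57), and its other probe sets by -0.96 and -1.68. In both subunits tumour replicate 2 lay inside the normal range, 0.57 and 0.09 below its top.

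Tyms, which encodes thymidylate synthase, could hardly be read. The probe set taken by the rule gave 3.99, 4.00 and 4.04 in tumour LEC and 4.43, 4.21 and 4.03 in normal LEC, close to the background limit of 3.40 to 3.71, and the 3 other probe sets of Tyms alone were at background on all arrays. A further probe set is annotated to both Tyms and a pseudogene and was not used. Its difference of -0.22 (95% interval -0.55 to 0.12) is therefore not comparable with the rest.

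Chaf1b, a subunit of the assembly factor that places histones on new DNA, read 5.86, 7.20 and 3.45 in tumour LEC and 7.50, 7.78 and 7.22 in normal LEC. Tumour replicate 3 was at background, tumour replicate 2 was 0.02 below the lowest normal array, and the difference was -1.99 (SE 0.94, adjusted p = 0.377 by limma).

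Among the regulators, E2f1, a transcription factor that switches on replication genes, read 5.88, 6.45 and 5.26 in tumour LEC and 6.98, 6.72 and 6.73 in normal LEC. Its groups did not overlap and it differed by -0.94 (SE 0.31, adjusted p = 0.257 by limma). The E-type cyclins, partners of CDK2 at the entry to S phase, had their highest tumour value in replicate 2. Ccne2 read 7.50, 9.88 and 7.20 in tumour LEC and 8.92, 9.16 and 8.82 in normal LEC, with tumour replicate 2 above every normal array by 0.71. Ccne1 read 7.43, 9.17 and 8.46, and 9.09, 9.08 and 9.01, with tumour replicate 2 above by 0.08, but its other probe set put that array, at 6.92, below every normal array (7.27, 7.12 and 7.06), with a difference of -1.24. The 4 genes for which that array topped all others were Cdc6, Ccne1, Ccne2 and Gins3, the last by 0.02, beside 9.17% of all genes, a share close to that of these 4 among 43.

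Tumour replicates 1 and 3 were both low but not in the same genes to the same extent. Replicate 3 was the lowest array for 29 genes and replicate 1 for 14, beside 21.4% and 16.9% of all genes. The difference of replicate 3 from replicate 1 was -2.40 in Tk1, -1.75 in Rfc5 and -1.10 in Lig1, each read by a single probe set. Replicate 3 was higher than replicate 1 by 0.99 in Orc2, and its second probe set had the same order (7.03 against 5.63). In other genes the probe sets disagreed. Ccne1 was higher in replicate 3 by 1.03 on the brightest probe set, while the other read 5.32 against 5.48. Mcm6 was higher by 0.58, while its second probe set read 9.89 against 9.85. Rfc3 differed by -1.87, with replicate 3 near background, while its second probe set read 4.57 against 4.09.

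The probe sets of a gene that were bright enough to read gave the same direction. Of 95 probe sets of the 43 genes, 52 were not the brightest of their gene. Of these, 30, from 23 genes, were above background on all 6 arrays, and all 30 were lower on average in tumour LEC, 18 of them by more than the brightest one. A further 3 were above background on some arrays and lower too. The 19 at background on all arrays had no such pattern, with 17 higher by at most 0.21 and 2 lower in tumour LEC, beside control probe sets that were themselves highest in tumour replicate 3. Genes with a background probe set of opposite sign were Mcm5, Mcm6, Mcm10, Cdt1, Cdc45, Gins3, Orc1, Pola1, Pola2, Prim2, Pole2, Rrm1, Tyms and Chaf1b. In 7 genes (Mcm3, Mcm4, Mcm6, Gins2, Rfc1, Rpa1 and Ccne1) another probe set had groups apart where the brightest did not: the second probe set of Mcm4 read 8.79, 10.02 and 8.49 in tumour LEC and 10.36, 10.57 and 10.06 in normal LEC.

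**Figure D4:**
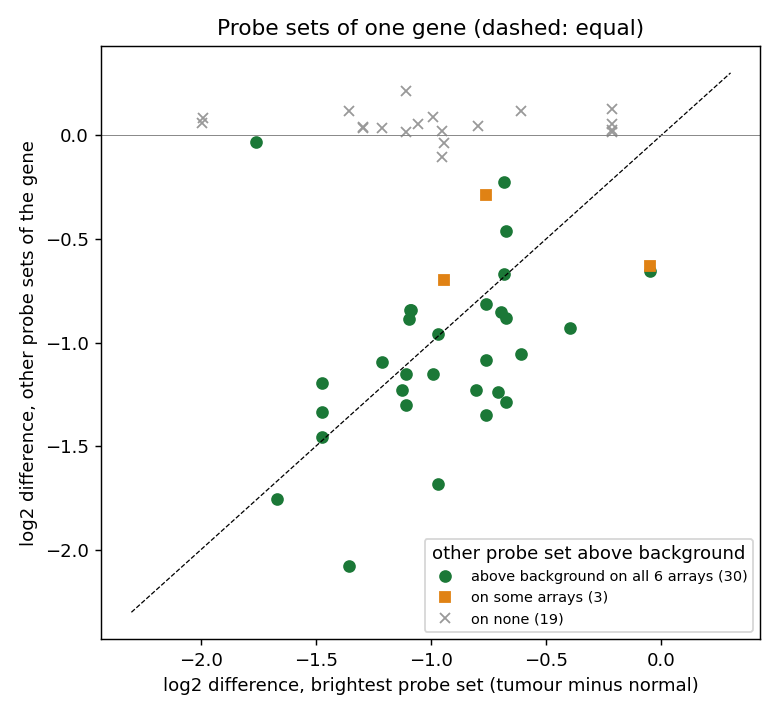
Log2 difference of each further probe set of a gene (vertical axis) against that of the brightest one (horizontal axis), by whether the further one was above background. The 30 probe sets above background on all arrays lie below 0, and the 19 at background lie near 0 whatever the brightest one gave.

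Other genes of the same pathway, a list of 71 chosen by function, were mostly lower too. Of 67 tested, 0 passed the test (limma, lowest adjusted p = 0.0778), 58 were lower and 9 higher on average, and the median difference was -0.71. The groups did not overlap for 18 lower and 3 higher genes, beside 11.6% and 20.9% of all genes. The smallest p belonged to Msh6, of DNA mismatch repair, at 8.46, 8.65 and 8.32 in tumour LEC and 9.32, 9.39 and 9.39 in normal LEC (difference -0.89, SE 0.12). Dscc1, of an alternative clamp loader, differed by -2.08 (SE 0.45) and Timeless, of the complex that protects the fork, by -1.11 (SE 0.27). In all 3 the tumour arrays, replicate 2 included, lay below every normal array. These genes were picked for the smallest p, a choice that itself favours groups apart.

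Of the genes that were higher, Rrm2b, the ribonucleotide reductase subunit that p53 induces and that serves cells outside S phase, had the smallest p. It read 8.39, 8.82 and 8.81 in tumour LEC and 7.99, 8.16 and 8.14 in normal LEC, with groups apart and a difference of 0.58 (SE 0.16, adjusted p = 0.202 by limma), where its S phase counterpart Rrm2 differed by -0.97. The difference between these genes was not tested. The list's median deviation per array was -0.60, 0.21 and -0.50 in tumour LEC and 0.27, 0.51 and 0.15 in normal LEC, the same order within normal LEC as for the 43 genes.

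Genes of mitosis, the step that follows replication, differed in how the tumour arrays stood to each other. All 29 tested were lower on average and 0 passed (limma), with a median difference of -1.90 and groups apart for 17, beside 11.6% of all genes. Against the mean of normal LEC their median stood at -1.47, -0.37 and -3.77 in tumour replicates 1, 2 and 3, where the 43 replication genes stood at -1.25, -0.22 and -1.53. The median of the mitosis genes was thus further below normal LEC on each tumour array, by the most in tumour replicate 3, a contrast that was not tested. The proliferation marker Mki67 read 10.97, 12.42 and 8.37 in tumour LEC and 12.85, 13.08 and 12.44 in normal LEC.

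Of the 10 D cyclins and CDK inhibitors, which act upstream of E2F, 7 were lower and 3 higher, with a median of -0.05, and 0 passed (limma). Cdkn1c, the inhibitor p57, read 9.88, 10.04 and 10.41 in tumour LEC and 7.96, 9.42 and 8.00 in normal LEC, higher by 1.65 on average (SE 0.44, adjusted p = 0.200 by limma) with groups apart. Ccnd3 differed by -0.66 (SE 0.25). In Cdkn1c tumour replicate 2 stood with the other tumour arrays, but the gene was picked for the smallest p of its list, which favours this.

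**Figure D5:**
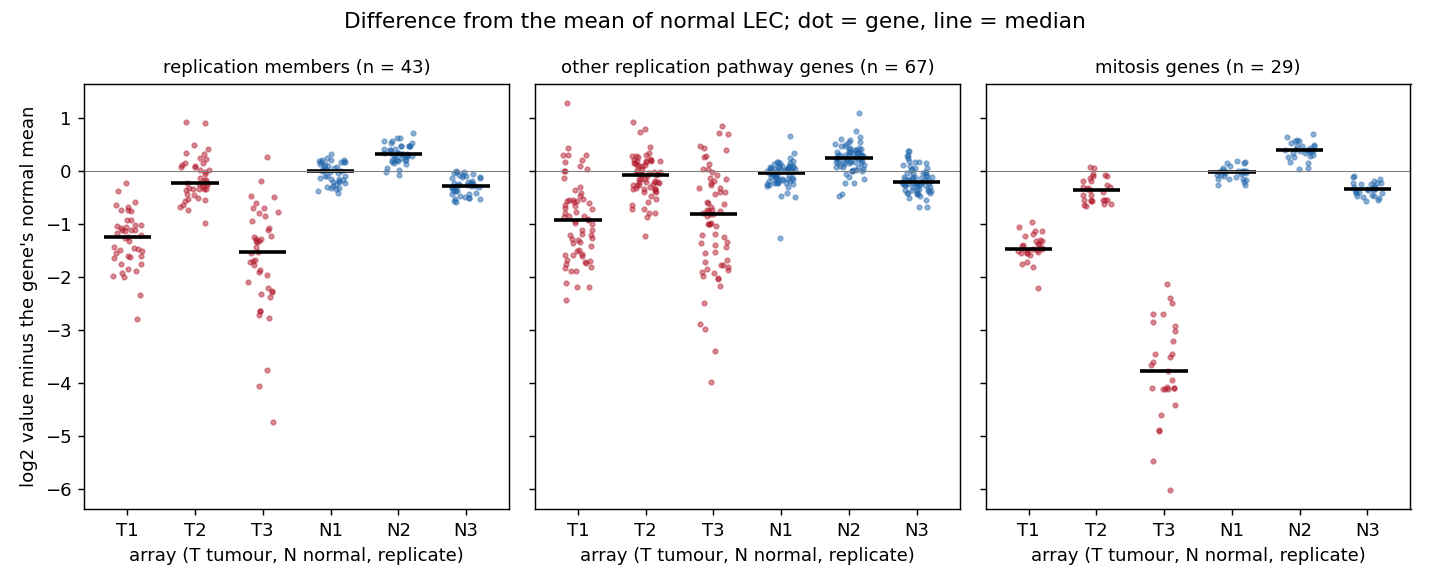
Log2 value minus the gene's mean over the 3 normal arrays (vertical axis) by array, for the 43 replication genes, 67 other pathway genes and 29 mitosis genes; dots are genes and lines medians. In tumour replicate 3 the medians are -1.53, -0.81 and -3.77, and in tumour replicate 2 they are -0.22, -0.08 and -0.37.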

How the data were processed

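Total RNA was hybridised to 6 arrays of 45101 probe sets. The authors deposited a log2 value for each probe set and array. Their processing notes name RMA and GCRMA without roles, so the method behind these values is unknown here, and scanner files were not used. GEO's platform annotation gave 1 gene for 34945 probe sets, several for 932 and none for 9160; checking symbols by Entrez identifier against RefSeq (GRCm38.p6) altered none.

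Probe sets with a mean above the 40th percentile (2.71) were kept and the brightest taken per gene. Groups were compared with limma 3.58.1 in R 4.3.3 (lmFit and eBayes, two-sided, Benjamini-Hochberg over 12954 genes, threshold 0.05), tested on simulated data. In those data 22% of 50 genes with a true log2 change of 1 passed, and 72% of 50 with a change of 2. A gene with a change near 1 can thus easily miss the threshold. Alternatives changed the filter, the scaling (quantile or median), the variance model, array weighting, the choice of probe sets, blocking by replicate number and the arrays used. The members and lists were chosen with earlier results of these data known. Array values were printed, per role, for the smallest p and the largest difference, and for genes with probe sets of opposite sign; those of Orc2, Cdc6, Rfc3, Ccne1, Ccne2 and of further probe sets were added after they were seen. Of each other list, up to 3 genes per direction with the smallest p could be named, and Gins4, Orc3, Orc4 and Orc5 were added after their values were seen.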

Additional observations from a re-analysis of the deposited data

How the results depend on the processing

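The count of 0 replication genes past the test was the same in all 15 alternatives (limma), with the lowest adjusted p of the 43 between 0.102 and 0.478. Of the single genes' values under each alternative, 629 kept their direction and stayed short of the threshold, and 11 turned sign. With array weights these were Ccne2 (0.50), Cdc6 (0.47), Gins3 (0.33), Fen1 (0.23), Orc2 (0.22) and Orc6 (0.14), with the median of the 43 genes at -0.35 and that of the other pathway genes at -0.26, 2 of which then passed. With quantile normalization Gins3 turned to 0.0196 and Orc2 to 0.0166. Leaving out single arrays moved Gins3 between -0.57 and 0.0160, Orc2 between -0.24 and 0.29, the median of the 43 between -1.52 and -0.68 and the count of genes with separate groups between 12 and 41. The number of all genes past the test was 28, and 10 without a filter, 97 with the 60th percentile filter, 385 with array weights, 46 with the replicate block and 4 to 81 with single arrays left out. The cause was not tested.

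It is not known whether replicate numbers pair the arrays. Deviations from the group means correlated at 0.19, 0.33 and -0.00383 for numbers 1, 2 and 3 over 12954 genes. Tumour replicates 1 and 2 each correlated best with the normal array of the same number. Tumour replicate 3 correlated best with normal replicate 2 (0.13). With the replicate block 0 of the 43 genes passed the test (limma), where 46 of all 12954 genes did. Without probe sets of suffix _x_at, _s_at or _a_at, 38 of the 43 genes could be tested. Differences of probe sets near the background limit cannot be read.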
